A study of Mus musculus with 71 samples.

Results

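The replication-dependent histone genes were described by their chromatin loops in mouse synovial sarcoma (SyS) tumors. They were taken as the protein-coding genes of GENCODE vM21 whose symbols start with Hist1h, Hist2h or Hist3h, which gave 66 of 21938 protein-coding genes. The Hist1 cluster on chromosome 13 held 54 of them, the Hist2 cluster on chromosome 3 held 10 and the Hist3 locus on chromosome 11 held 2. A gene was credited with every loop of which an anchor, as the ends of a loop are called, came within 2 kb of one of its transcription start sites (TSSs).

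These genes encode the core histones H2A, H2B, H3 and H4, which form the nucleosome, and the linker histone H1, which binds the DNA between nucleosomes. Their mRNAs are made in S phase, lack introns and end in a stem-loop in place of a poly(A) tail. Inside the nucleus the active genes gather in the histone locus body, where NPAT drives transcription and the U7 snRNP with its partners cuts the 3′ end.

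Chromatin conformation had been measured by HiChIP, which joins proximity ligation of MboI-cut chromatin to immunoprecipitation, here with an antibody against H3K27ac, a mark of active promoters and enhancers. The samples were 2 hSS2 tumors, in which mice express human SS18::SSX2. Tumors of this kind were initiated by TATCre protein injection into the hindlimb at 8 days of life, and they were dispersed to single cells before crosslinking. There was no untreated or normal tissue group for this assay.

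The authors deposited 1 merged list of 24244 loops with 41574 paired-end tags, where a tag is a read pair that joins the anchors. The list had 2 parts, each sorted by position, with 28657 and 12917 tags, and neither part was assigned to a tumor. No replicate values could be formed, so all shares are given with Wilson 95% intervals that cover counting error only, and no test was made. Among marker genes, 6 of 10 for mesenchymal cells and SyS had a loop, near the 45.8% of all protein-coding genes that had one. Summed tags were 41 at Pdgfra, 39 at Sox2, 22 at Twist1, 5 at Prrx1, 5 at Vim and 4 at Tle1. Twist2, Pdgfrb, Col1a1 and Bcl2 had no loop. None of 4 muscle markers and none of 4 immune markers had a loop, while 1 of 3 endothelial and 1 of 3 epithelial markers did, with 3 tags at Cdh5 and 1 at Epcam. A marker without a loop does not show that the cells were absent, and the share of other cell types in the loops was not tested.

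The promoters of the genes on which the loops turned are shown first, as the bases from 250 upstream to the base before the RefSeq start, on GRCm38.p6 and in the direction of transcription. Capitals mark motifs searched on both strands. They are TATAAA, the element bound by TBP, then CCAAT, known as the site of the factor NF-Y, the octamer ATTTGCAT of the Oct-1 protein, the H1 box spelled AAACACA and, for H4 genes, the element spelled GGTCCG of the factor HINFP. Hist1h2bg, an H2B gene that shares its promoter with the divergent H2A gene Hist1h2ae, lay at the site with the most tags (chr13:23571150-23571399, plus strand).
Hist1h2bg: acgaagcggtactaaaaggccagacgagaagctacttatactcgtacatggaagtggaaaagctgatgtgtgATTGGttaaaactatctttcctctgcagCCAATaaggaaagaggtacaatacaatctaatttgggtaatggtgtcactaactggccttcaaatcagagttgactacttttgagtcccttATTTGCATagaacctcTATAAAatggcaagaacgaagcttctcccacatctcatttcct
Hist1h4d, an H4 gene, lay at the other end of the loop with the most tags (chr13:23581318-23581567, plus strand).
Hist1h4d: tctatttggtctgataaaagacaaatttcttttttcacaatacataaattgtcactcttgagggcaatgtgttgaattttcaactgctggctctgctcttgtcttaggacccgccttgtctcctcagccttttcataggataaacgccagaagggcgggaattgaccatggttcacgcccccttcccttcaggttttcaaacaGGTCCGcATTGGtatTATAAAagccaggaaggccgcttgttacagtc
Hist1h1c, an H1 gene, had the most tags of its class (chr13:23738557-23738806, plus strand).
Hist1h1c: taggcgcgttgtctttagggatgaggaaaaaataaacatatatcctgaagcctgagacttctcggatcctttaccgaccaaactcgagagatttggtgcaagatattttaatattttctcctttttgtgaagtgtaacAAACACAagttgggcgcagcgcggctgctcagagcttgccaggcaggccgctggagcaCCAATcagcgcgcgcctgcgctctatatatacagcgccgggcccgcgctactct
Hist1h3c, an H3 gene, was joined to Hist1h1c (chr13:23745522-23745771, minus strand).
Hist1h3c: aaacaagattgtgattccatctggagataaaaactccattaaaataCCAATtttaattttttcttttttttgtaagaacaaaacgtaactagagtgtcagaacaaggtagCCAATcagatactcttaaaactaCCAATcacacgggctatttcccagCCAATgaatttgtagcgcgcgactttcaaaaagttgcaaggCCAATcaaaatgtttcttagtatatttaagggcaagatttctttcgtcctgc
Hist2h2ac, an H2A gene, represents the chromosome 3 cluster (chr3:96220881-96221130, minus strand).
Hist2h2ac: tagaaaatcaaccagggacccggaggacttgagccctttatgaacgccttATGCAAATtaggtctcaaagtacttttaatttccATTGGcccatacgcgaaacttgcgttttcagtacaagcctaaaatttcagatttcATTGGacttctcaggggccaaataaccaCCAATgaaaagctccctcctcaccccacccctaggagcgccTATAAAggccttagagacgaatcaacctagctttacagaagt
Hist1h2ba, which encodes the testis form of H2B, had no loop (chr13:23934157-23934406, minus strand).
Hist1h2ba: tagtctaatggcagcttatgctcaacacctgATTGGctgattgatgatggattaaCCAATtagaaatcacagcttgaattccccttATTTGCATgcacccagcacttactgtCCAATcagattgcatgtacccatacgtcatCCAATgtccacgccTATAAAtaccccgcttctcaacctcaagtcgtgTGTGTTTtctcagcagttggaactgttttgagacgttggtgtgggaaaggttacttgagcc

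RefSeq promoters of 300 bases, from 250 before to 50 after the start, were matched for 61 of the 66 genes, and motif shares refer to these windows. The histone classes differed in their letters. The H4 element was found in 10 of 11 H4 promoters (90.9%, 62.3 to 98.4) and in 8.25% of all 32851 promoters, and the H1 box in 5 of 6 H1 promoters (83.3%, 43.6 to 97.0) and in 7.18% of all promoters. The octamer stood in 7 of 18 H2A and 6 of 16 H2B promoters and in no H1, H3 or H4 promoter, against 1.74% of all promoters. Windows of divergent H2A and H2B genes overlap, so the same octamer can count for both, as at Hist1h2ae and Hist1h2bg. The CCAAT box was present in every H1, H2A, H2B and H3 promoter matched, but in 3 of 11 H4 promoters (27.3%, 9.75 to 56.6) against 37.4% of all. TATAAA was found in 35 of 61 (57.4%, 44.9 to 69.0) against 13.6% of all, on either strand and anywhere in the window. On the gene's own strand it stood before the start in 24 genes, and 15 to 45 bases before it in 15. The MboI site GATC, at which the chromatin was cut, stood in 20 of 61 (32.8%, 22.3 to 45.3) against 48.0% of all, and within 2 kb of each start there were 4 to 16 such sites. A match of letters is a description and says nothing of binding. None of these motifs contains another, and capitals above do not mark the MboI site.

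**Figure D1:**
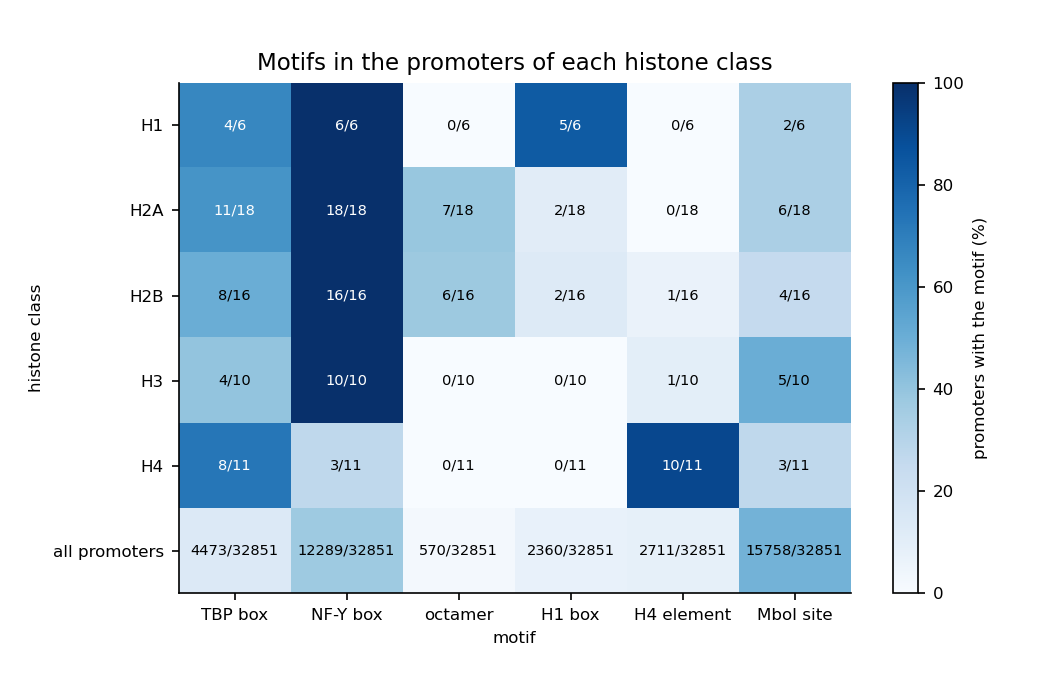
Share of promoters that hold each motif (color, percent; numbers, promoters with the motif over promoters searched) for each histone class and for all RefSeq promoters. The TBP box is TATAAA and the NF-Y box is CCAAT; the H4 element is concentrated in the 11 H4 promoters, the H1 box in the 6 H1 promoters and the octamer in the H2A and H2B promoters.

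The histone mRNA stem-loop was searched as a stem of 6 paired bases around 4 loop bases, starting with GG and with TT at the start of the loop, in the 150 bases after the stop codon. It was found in 63 of 66 genes (95.5%, 87.5 to 98.4), at a median of 31 bases after the stop codon (22 to 59), and 62 had a perfect stem. It was not found in this window for Hist2h2be, Hist1h3g and Hist1h4a. The 3 commonest forms are given as DNA, with the stem in capitals and the loop in lower case, since these letters are what the genes share at their 3′ ends.
Form of 41 genes: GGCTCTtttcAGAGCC
Form of 9 genes: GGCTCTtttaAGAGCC
Form of 7 genes: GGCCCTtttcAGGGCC

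The coding sequences repeat one another within a class, which bears on how reads can be placed. All 12 H4 genes encoded the same protein, from 11 distinct coding sequences with a median pairwise identity of 94.7%, and 9 of 18 H2A genes shared one protein. The 12 H3 genes encoded 3 distinct proteins, of 136 to 181 residues, and the 18 H2B genes 12, of 126 to 138 residues. The longest annotated coding sequence of each gene was used throughout, so these counts can include longer annotated forms. The 6 H1 genes each encoded a protein of their own, with a median identity of 70.6% between coding sequences. Divergent arrangement was the rule for H2A and H2B, with 12 pairs whose starts lay 176 to 306 bases apart, each of 1 H2A and 1 H2B gene. Of these pairs, 11 had loops. The genes of a pair had equal tags in all 12, which follows largely from the window of 2 kb, since such close starts are credited with the same anchors.

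Loops were found at 61 of the 66 histone genes (92.4%, 83.5 to 96.7), against 45.8% of protein-coding genes (10050 of 21938). The summed tags of a gene's loops, called its loop score, had a median of 8 tags over the looped histone genes (quartiles 4 and 22) and 4 over all looped protein-coding genes (upper quartile 9). A loop score of at least 50 was reached by 12 of 61 (19.7%, 11.6 to 31.3) against 2.22% of looped protein-coding genes, and of at least 20 by 20 of 61 (32.8%, 22.3 to 45.3) against 10.5%. These genes are not independent. The 61 genes carried only 31 distinct sets of loops, and 34 of the 45 anchors at histone genes held more than 1 of them, up to 5. Counting only loops of at least 2 tags, 36 of 66 genes (54.5%) and 21.2% of protein-coding genes had a loop, and counting only loops with an FDR under 0.01, 31 of 66 (47.0%) and 17.6% had one.

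The 5 genes without a loop were Hist1h2bm (H2B), Hist1h3g (H3), Hist1h4b (H4) and the testis pair Hist1h2ba and Hist1h2aa (H2B and H2A). The testis pair stood apart from the others, with no anchor within 10 kb. The nearest anchor lay 2587 bases from Hist1h3g, 2667 from Hist1h4b and 4233 from Hist1h2bm, beyond the window of 2 kb. Just inside it, the nearest anchor of Hist1h2bq lay 1267 bases away and that of Hist1h2af 1071, and an anchor of Hist1h1d lay 1084 bases away, while 54 of the 66 starts lay within an anchor. At the same edge, Hist1h4d had no tags from the second part of the list because an anchor of that part with 9 tags lay 2038 bases from its start. Most genes of every class had a loop, with 6 of 6 H1, 17 of 18 H2A, 16 of 18 H2B, 11 of 12 H3 and 11 of 12 H4 genes. The median loop score over all genes of a class was 17.5 tags for H1, 10 for H3, 7.5 for H2A and for H2B and 4.5 for H4, with the highest at 29 for H1, 64 for H4 and 72 for each of the other classes.

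**Figure D2:**
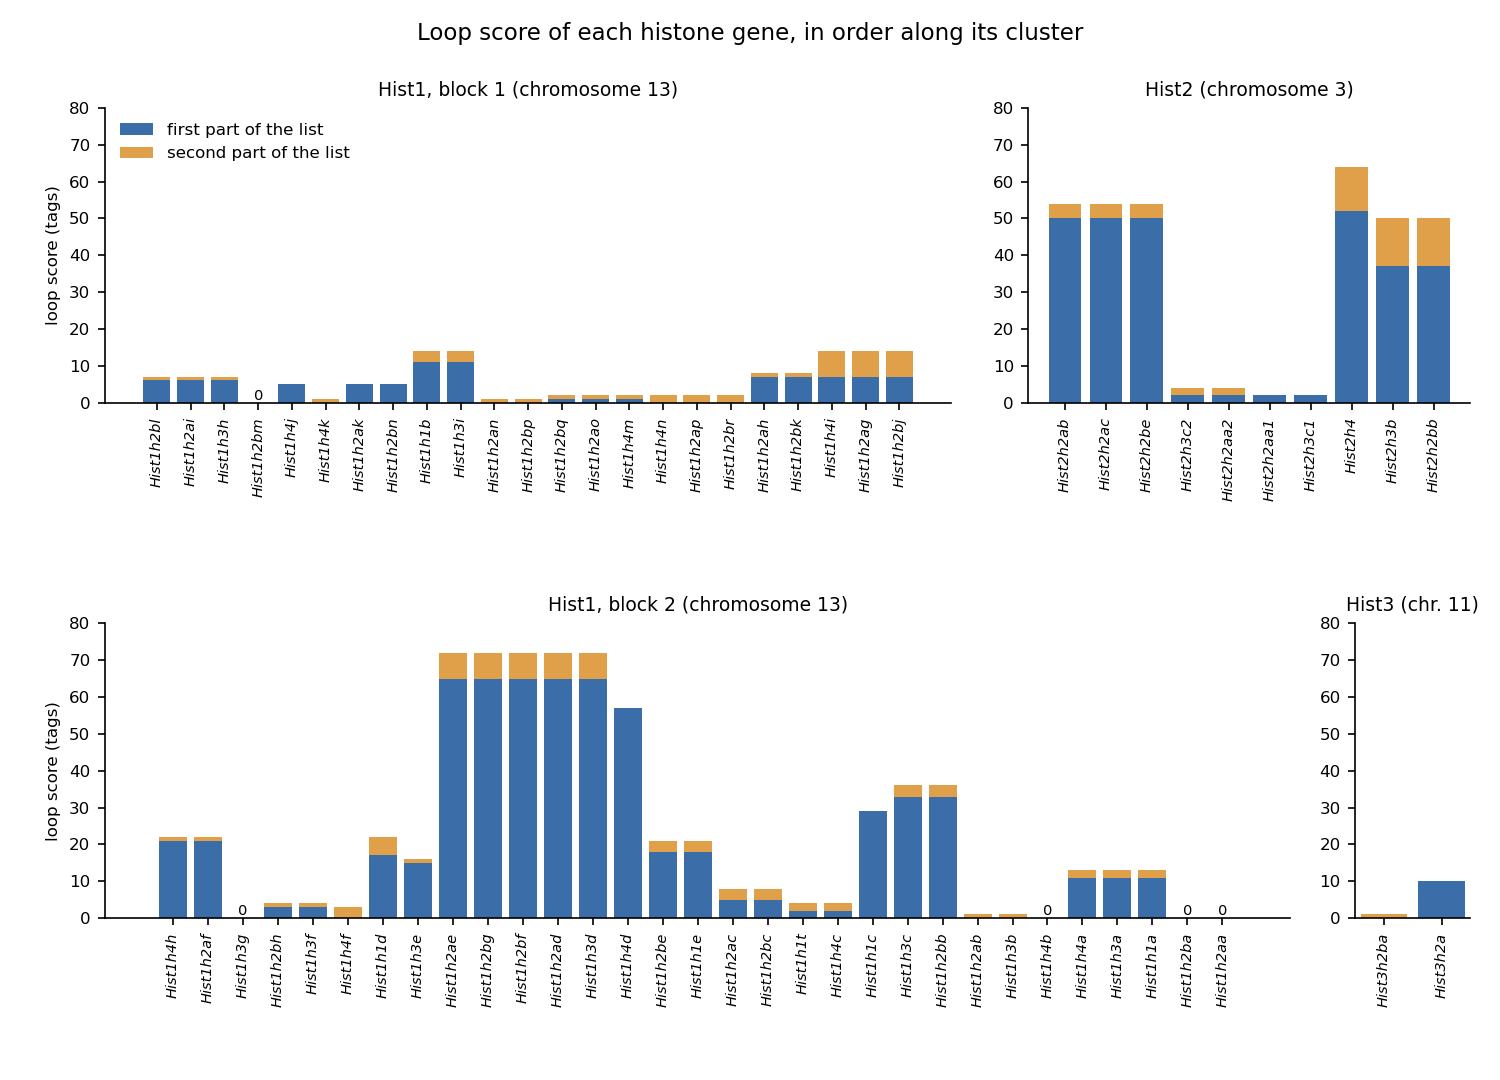
Loop score of each histone gene (vertical axis, tags), in order along its cluster, split by the part of the list in which the tags stood. Block 2 of the Hist1 cluster reaches 72 tags and the Hist2 cluster 64, whereas no gene of block 1 exceeds 14, and genes that share all their anchors have equal bars.

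The histone genes had 176 loops with 376 tags, which is 0.726% of the loops and 0.904% of the tags of the list. The first part of the list held 124 of these loops with 310 tags and the second part 52 loops with 66 tags. The second part thus gave 17.6% of the histone tags but 31.1% of all tags. Of the 61 looped genes, 43 had a loop in both parts (70.5%, 58.1 to 80.4), against 53.1% of looped protein-coding genes. Loops of a single tag made up 69.3% (122 of 176, 62.2 to 75.7) and 78.0% of the list, and these carry little information singly. No loop of the list under 100 kb had fewer than 2 tags.

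Other histone genes were frequent partners. Loops with a histone gene at both ends numbered 49 of 176 (27.8%, 21.7 to 34.9) and held 173 of 376 tags (46.0%, 41.0 to 51.1). The rest went to other protein-coding genes (102 loops, 157 tags), to noncoding or pseudogene starts (6 loops, 7 tags) and to anchors over 2 kb from every TSS (19 loops, 39 tags). Tags of the same loop are not independent, so the intervals of tag shares understate the uncertainty. In other gene groups, whose genes lie on many chromosomes, few loops stayed within the group. The list held no loops between chromosomes, so most pairs of genes in these groups could not be joined. Of 84 ribosomal protein genes 74 were looped, with a median of 6 tags and 3 of 505 loops within the group (0.594%, 0.202 to 1.73). Of 50 DNA replication genes 37 were looped, with a median of 4 tags and 0 of 184 loops within the group (0%, 0 to 2.05). Closeness along the chromosome and membership of the family cannot be told apart in this contrast.

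The Hist1 cluster fell into 2 blocks. Block 1 (chr13:21716143-22043214, between outer TSSs) held 23 genes and block 2 (chr13:23531050-23934462) held 31, and the 1.49 Mb between them held 40 protein-coding genes, of which 36 were Vmn1r vomeronasal receptor genes. None of the Vmn1r genes had a loop, and anchors were sparse between the blocks, at 6.74 per Mb against 55.0 in block 1 and 62.0 in block 2. The blocks differed in tags per gene. Block 1 had 22 of 23 genes looped but only 52 loops with 57 tags, and a highest loop score of 14. Block 2 had 27 of 31 genes looped, 88 loops with 202 tags, and a highest loop score of 72.

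Block 2 contained a run of strongly joined genes. The site with the most tags (chr13:23570213-23577138), made of overlapping anchors from both parts of the list, held Hist1h2ae and Hist1h2bg, Hist1h2bf and Hist1h2ad, which are divergent H2A and H2B pairs, and the H3 gene Hist1h3d. It had 15 loops with 72 tags, 65 in the first part of the list and 7 in the second, and 87.5% of the tags led to other histone genes. The anchors of this site were wide, at 6.93 and 6.43 kb, and that of Hist1h4d measured 5.95 kb. The median for anchors at protein-coding genes was 2.71 kb, and the part of width in the tags was not tested. The loop score of the site exceeded those of 99.2% of looped protein-coding genes. Its strongest loop, also the strongest of all histone loops, joined it to Hist1h4d by 24 tags (FDR = 2.15e-08) over 9.67 kb between midpoints. Hist1h4d had 11 loops with 57 tags, all in the first part. In the second part, 5 tags (FDR = 0.0118) over 11.2 kb joined the same site to an anchor that overlapped the Hist1h4d anchor but began 2038 bases from the start of the gene.

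Further loops of the Hist1h2bg site reached Hist1h4h and Hist1h2af (10 tags, 42.5 kb), the H3 gene Hist1h3e (10 tags, 11.5 kb) and the H1 gene Hist1h1d (8 tags, 18.3 kb). Hist1h4d was in turn joined to Hist1h2be and Hist1h1e, an H2B and an H1 gene, by 11 tags over 37.9 kb, and to Hist1h3c and Hist1h2bb by 7 tags over 164 kb. A further strong loop joined the H1 gene Hist1h1c to Hist1h3c and Hist1h2bb, an H3 and an H2B gene, by 15 tags over 7.66 kb. All of these loops stood in the first part of the list, with FDR from 5.62e-05 for the loop over 164 kb to 0.0482 for that of Hist1h1d. The loop scores were 36 for Hist1h3c and Hist1h2bb, 29 for Hist1h1c, 22 for Hist1h1d, Hist1h4h and Hist1h2af, 21 for Hist1h2be and Hist1h1e and 16 for Hist1h3e. With RefSeq TSSs Hist1h2be had 76 tags, since RefSeq places a further start of this gene in the anchor of Hist1h4d. Within a window of 1 kb Hist1h1d had 3 tags and Hist1h2af none. The looped Hist1 genes with lower scores had 1 to 14 tags, and those at 14 were Hist1h1b with Hist1h3i and Hist1h4i with Hist1h2ag and Hist1h2bj. Among H1 genes the lowest loop score was 4, at Hist1h1t, the testis H1, which shared its anchors with Hist1h4c. Within block 2, 15 loops joined histone genes by 103 tags, whereas within block 1 there were 2 such loops of 1 tag each, which joined Hist1h4k to Hist1h2ah and Hist1h2bk and joined Hist1h2bl, Hist1h2ai and Hist1h3h to Hist1h4i, Hist1h2ag and Hist1h2bj.

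**Figure D3:**
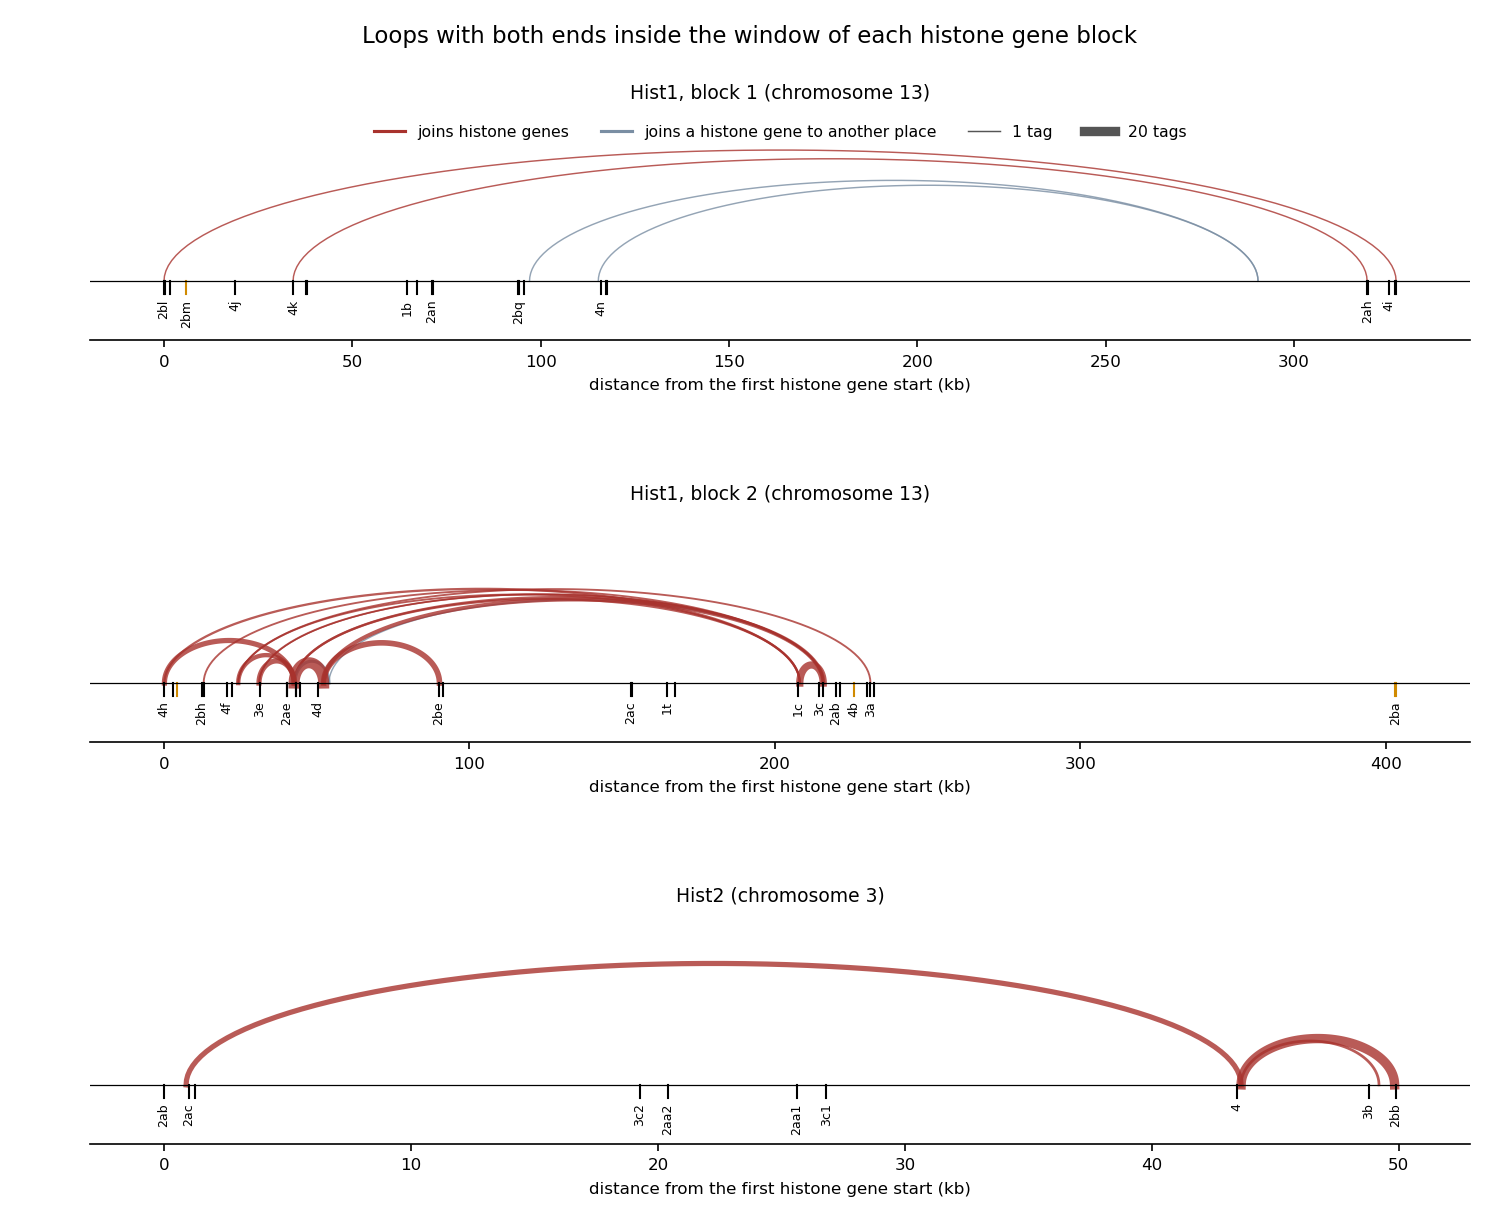
Loops with both anchors inside the drawn window of each cluster, against distance from its first histone gene start (kb); line width grows with tags, and ticks mark histone gene starts (orange where no loop was listed, names without the prefix and thinned where crowded). Block 2 and the Hist2 cluster hold thick arcs of up to 24 and 20 tags, and block 1 holds only arcs of 1 tag.

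The Hist1h2bg site weighed on the shares of the whole family. Without its loops, histone genes at both ends were found in 38 of 161 loops (23.6%) and in 110 of 304 tags (36.2%). Loops under 20 kb, 9 in number, gave 26.6% of the histone tags and 14.8% of the tags of the list.

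Loops also joined the blocks to each other across the receptor genes. There were 29 such loops with 34 tags, spanning 1.49 to 1.98 Mb, and they involved 44 of the 54 Hist1 genes, 21 in block 1 and 23 in block 2. Of them, 24 stood in the first part of the list and 5 in the second, and 24 had a single tag. The 5 loops of 2 tags joined Hist1h4d to Hist1h2ai, Hist1h2bl and Hist1h3h and also to Hist1h2ah and Hist1h2bk, joined Hist1h4h and Hist1h2af to Hist1h2ah and Hist1h2bk, and joined Hist1h1b and Hist1h3i to Hist1h3c and Hist1h2bb and also to Hist1h1a, Hist1h3a and Hist1h4a. Their FDR lay between 0.000321 and 0.000434, and none of the other 24 had an FDR under 0.01. Every loop of block 1 with more than 1 tag was among these 5.

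To set this against other promoters, overlapping anchors were merged into sites, and pairs of sites at protein-coding genes were counted by distance. The 10 sites of block 1 and 14 of block 2 formed 140 pairs, of which 129 lay within 2 Mb, the largest span in the list. Of these, 27 were joined by a loop (20.9%, 14.8 to 28.7). Of coding site pairs at the same distances, 32 of 466 without a histone site were joined on chromosome 13 (6.87%, 4.91 to 9.53) and 1359 of 29239 on the other chromosomes (4.65%, 4.41 to 4.90), where pairs with 1 histone site were kept. Pairs of a histone site and another coding site on chromosome 13 were joined in 9 of 94 cases (9.57%, 5.12 to 17.2), an interval that overlaps that of the histone pairs. The higher share was seen at long range, also against all coding pairs at 1 to 2 Mb (5.87%). Shorter distances were set against all coding pairs of the list. Under 20 kb, 4 of 20 pairs of Hist1 sites were joined (interval 8.07 to 41.6%) against 18.8% of all coding pairs. Between 20 and 100 kb they were joined in 2 of 50 cases (interval 1.10 to 13.5%) against 4.68%, and between 100 and 500 kb 10 of 63 (15.9%, 8.86 to 26.8) against 17.1%. With anchors as deposited, the shares of Hist1 pairs in this order of distance were 8%, 1.82% and 7.10%. Those of all coding pairs on chromosome 13 were 7.22%, 2.11% and 11.2%. For the pairs across the blocks, with at least 2 tags in a loop, the shares were 5 of 129 (3.88%, 1.67 to 8.75), against 2 of 466 on chromosome 13 (0.429%, 0.118 to 1.55) and 63 of 29239 elsewhere (0.215%, 0.168 to 0.276). The histone pairs share sites and are not independent, and sites were counted only where the list had an anchor. Sites of histone genes also had more partners in all, with a median of 6 partner sites against 3 for sites at protein-coding genes, and the part of this in the share was not tested.

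**Figure D4:**
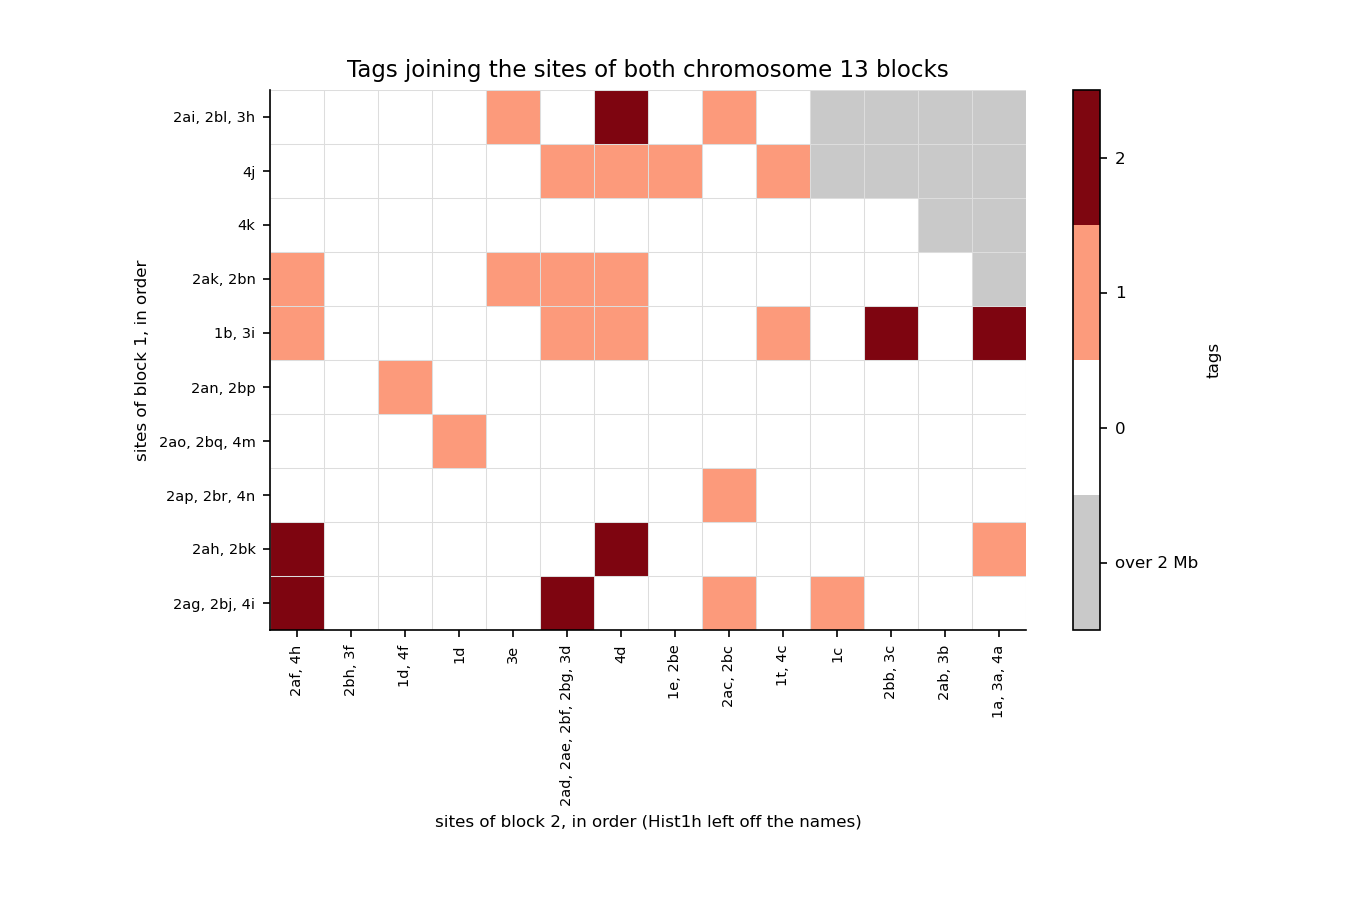
Tags that join each site of block 1 (rows) to each site of block 2 (columns), in order along chromosome 13, with Hist1h left off the gene names and overlapping anchors merged. The 27 joined pairs are spread over 9 of 10 rows and 12 of 14 columns, and gray marks the 11 pairs over 2 Mb apart, which the list could not hold. Of the 7 darkest cells, 5 are single loops of 2 tags and 2 are pairs with a loop of 1 tag in each part of the list.

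**Figure D5:**
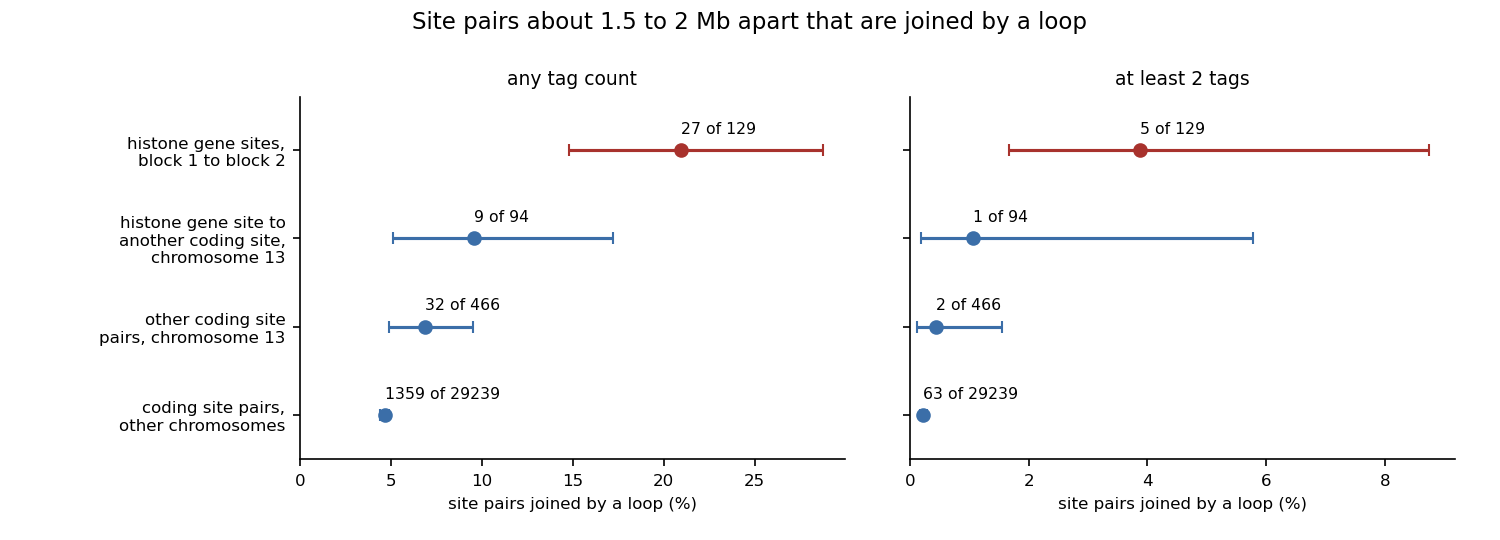
Share of site pairs joined by a loop (horizontal axis, percent) among pairs at 1.49 to 2 Mb, for any tag count (left) and at least 2 tags (right); bars are Wilson 95% intervals. Histone sites across the blocks are joined in 27 of 129 pairs, against 32 of 466 coding pairs of chromosome 13 without a histone site.

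Near-identical copies were present in both blocks, and their part in the loops was not tested. Words of 100 bases that occur again in the histone clusters filled 72.7 to 97.4% of the 2 kb around 6 genes of block 1, the copied sets Hist1h2bq, Hist1h2ao, Hist1h4m and Hist1h2br, Hist1h2ap, Hist1h4n, and each of these had a loop score of 2. In the 28 genes where such words filled 10.7 to 43.1%, the median loop score was 8, and in the 32 genes with under 10% it was 13, with all 5 unlooped genes among the latter. Of the site pairs across the blocks, 12 of 27 joined pairs shared a word of 100 bases (44.4%, 27.6 to 62.7), as did 36 of 102 pairs that were not joined (35.3%, 26.7 to 44.9). These intervals overlap.

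On chromosome 3 the loops led mostly out of the histone family. The Hist2 genes had 57 loops with 140 tags, of which 24.3% (17.9 to 32.0) had histone genes at both ends, against 61.8% (55.3 to 67.9) of the 225 Hist1 tags. These tags came from only 3 loops in Hist2 and 46 in Hist1, so both intervals are too narrow. The clusters differ in length, 49.9 kb against 2218 kb, so that fewer distances between histone genes were open to Hist2. The H4 gene Hist2h4 had the highest loop score of the cluster, with 21 loops and 64 tags, 52 and 12 in the parts of the list. Its strongest loop joined it to Hist2h3b and Hist2h2bb, an H3 and an H2B gene, by 20 tags (FDR = 2.38e-06) over 6.21 kb, and the second part listed the same genes as joined by 4 tags over 5.58 kb. Hist2h3b and Hist2h2bb had a loop score of 50, of which 9 and 5 tags in the parts of the list led to anchors over 2 kb from any TSS, at 8.42 and 8.91 kb.

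The anchor of the H2A genes Hist2h2ab and Hist2h2ac and the H2B gene Hist2h2be had 19 loops with 54 tags, and lay also within 2 kb of a start of Bola1. Its strongest loop, of 15 tags over 23.5 kb, joined it to a further Bola1 start, and others reached Mtmr11 and Sf3b4 (10 tags, 48.3 kb) and Hist2h4 (10 tags, 42.7 kb). The 2 copies of the H3 and H2A genes between these anchors had few tags. Hist2h3c2 and Hist2h2aa2 had 4 loops and Hist2h2aa1 and Hist2h3c1 had 2, all of 1 tag and none to a histone gene. Words found again filled 43.1% of the 2 kb on either side of each of the 4 starts. They filled 42.0% at Hist2h2bb, which had a loop score of 50. On chromosome 11, Hist3h2a, an H2A gene, had 7 loops with 10 tags, all in the first part, and Hist3h2ba, an H2B gene, had 1 loop of 1 tag, in the second part. The strongest loops of Hist3h2a, of 2 tags each, included that to Guk1 over 237 kb. The Hist3 genes were not joined to each other, at starts 5.77 kb apart. The smallest span in the list was 5.00 kb and their anchors stood in different parts of it, so the lack of such a loop says little.

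At anchors away from the histone genes, the genes outside the family that shared most tags with them were Mtmr11, Sf3b4 and Gm17690. Of these, Sf3b4 encodes a splicing factor and Gm17690 is annotated as antisense. All of these shared 19 tags each through the same loops, and Abt1 followed with 17 and Bola1 with 15. Genes that start at the same anchors as histone genes were left out of this order. Among them Bola1 had 25 tags to histone genes once the 10 that joined its shared anchor to Hist2h4 were added, and Gm44359 and Gm44394, at the Hist1h2bg site, had 63. Abt1, which encodes an activator of basal transcription and lies between the blocks, had 89.5% of its 19 tags in loops to histone genes, over 7 loops that reached 12 of them. Its loops to Hist1h4d (4 tags, 160 kb), to Hist1h2be and Hist1h1e (3 tags, 198 kb), to Hist1h1c (3 tags, 316 kb) and to Hist1h1a, Hist1h3a and Hist1h4a (3 tags) were its strongest, all in the first part of the list. For Mtmr11 and Sf3b4 the histone share of their tags was 22.9% and 32.2%.

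Genes that regulate the family lie elsewhere in the genome. No 2 of them lay within 2 Mb on the same chromosome, so the list could not hold a loop between them. Of 22 such genes, 21 had a loop (95.5%), against 45.8% of protein-coding genes and 92.4% of the clustered histone genes. Their median loop score was 8 tags, as for the clustered histone genes, with a range from 0 to 23. Among genes for 3′ end processing were Srrt with 23 tags, Zfp473, for a protein of the U7 snRNP, with 22, Cpsf2 with 21 and Slbp, which encodes the stem-loop binding protein, with 18, of which 14 joined it to Tacc3 and Tmem129 over 5.44 kb. Lsm10 and Lsm11 of the U7 snRNP had 2 and 1, and Cpsf3 had none. Among transcriptional regulators, E2f1 had 20 tags, Hinfp, the factor of the H4 element, had 9, Pou2f1, which binds the octamer, had 7, Casp8ap2 had 5 and Npat had 2. Hinfp was joined by 4 tags over 29.7 kb to H2afx, the gene of the H2A.X variant.

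Histone genes outside the 3 clusters were looped in 11 of 12 cases (91.7%, 64.6 to 98.5), against 45.8% of protein-coding genes. The looped ones had a median of 7 tags, against 8 in the clusters. H3f3b, for the replacement histone H3.3, had 22 loops with 54 tags, and its sister gene H3f3a had none. The lone H4 gene Hist4h4 had 11 tags, as had H2afx and H2afv, and the remaining variants had from 1 to 8. These values lay within the range of the clustered genes.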

How the data were processed

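HiChIP read pairs (2 x 150 bases) from the 2 tumors had been mapped to mm10 with HiC-Pro and loops called with hichipper by the authors. They deposited merged loops with 2 values each, a count of paired-end tags, not normalized, and the caller's false discovery rate (FDR), an adjusted p-value with all values at or under 0.05. The methods give an FDR limit of 0.05, and a legend of the study has loops called with Mango at an FDR under 0.01 in the tumors and then merged; both limits are reported. How the tag counts were combined is not given in the sources used here, and the total depth of each library was not analysed here. MboI sites, peak strength and unique placement of reads decide where a loop can be listed, so genes in near-identical copies can lose tags.

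Here, anchors were matched to GENCODE vM21 TSSs within 2 kb with Python 3.11.15, numpy 2.4.6, pandas 2.3.3 and scipy 1.17.1. Tags were summed per gene, and Hist1 blocks were split at gaps over 500 kb. Read pairs carry no molecular identifiers, so tags are not independent molecules. Assignment was tested on simulated data. RefSeq promoters and transcripts, on GRCm38.p6, were searched for exact letters on both strands, and coding sequences were aligned with edlib 1.3.9.post1.

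The genes, lists and motifs were chosen with earlier results of these data known. Values are given for all Hist2 and Hist3 genes, the 15 Hist1 genes with the highest loop scores, the extremes of each class, the strongest loop of each block, loops of at least 2 tags between blocks and the 5 outside genes with most shared tags. Alternatives were windows of 1 and 5 kb, stricter FDR and tag limits, each part of the list alone, anchors of 4 kb, merged anchors, RefSeq TSSs and repeated anchor pairs counted as 1. Leaving out the loops of the Hist1h2bg site was chosen after the data were seen.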

Additional observations from a re-analysis of the deposited data

How the results depend on the processing

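The list holds 1 merged value per loop, so neither spread between tumors nor the limit of depth on unlisted loops could be measured. No paired analysis was possible because the tumors cannot be separated in the list and no groups were compared. Windows of 1 and 5 kb, anchors of 4 kb, RefSeq TSSs and repeated anchor pairs counted as 1 kept the number of looped genes between 59 and 64. Single genes moved more, as Hist1h1d from 22 tags to 3 and Hist1h2af from 22 to 0 at 1 kb, Hist2h3b and Hist2h2bb from 50 to 90 at 5 kb, and Hist1h2be from 21 to 76 with RefSeq TSSs. With an FDR under 0.01, under 0.001, at least 2 tags and at least 4 tags, in that order, looped genes numbered 31, 28, 36 and 21 (61 in all loops) and loops 34, 19, 54 and 17 (176 in all). The tags were 176 at an FDR under 0.01, 98 under 0.001 and 174 with at least 4 tags. Histone genes at both ends were then found in 38.2%, 42.1%, 40.7% and 58.8% of loops and in 62.5%, 62.2%, 57.5% and 68.4% of tags. Loops joining the blocks were 5, 5, 5 and 0, and single-tag loops were 0% in all 4. The second part alone gave 52 loops and 66 tags, with 17.3% of loops and 18.2% of tags between histone genes, 5 loops joining the blocks and 88.5% single-tag loops, whereas the first part alone gave 51.9% of tags and 61.3% single-tag loops. The median loop score of the 33 genes named by rule was 22, and fell to 2 under an FDR of 0.001, 11 with at least 4 tags, 2 in the second part and 6 without the Hist1h2bg site, which also lowered the share of tags between histone genes to 36.2%. Pairs of anchors across the blocks were joined in 10.2% of cases as deposited, 20.9% once overlapping anchors were merged and 1.76% with at least 2 tags as deposited. Hist1h4d had 109 tags with a window of 5 kb, which takes in the Hist1h2bg site, and 0 in the second part.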

Other observations

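The RefSeq annotation placed 31 tRNA genes between the outer histone starts of block 1 and none in block 2, on chromosome 3 or on chromosome 11, and 2 of the 45 anchors at histone genes held one. Beyond the blocks, Acot13 and Tdp2, which share an anchor region on chromosome 13, had 7 tags each in all, and every one of these tags led to histone genes, over 6 loops that reached 10 of them. Among the 20 chromosomes, the share of coding site pairs joined at 1.49 to 2 Mb, with pairs of histone sites left out, ran from 3.18% on chromosome 11 to 11.3% on chromosome X, and chromosome 13 ranked 4.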
